A study of Mus musculus with 2 samples.

Results

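Peaks of open chromatin at the 3′ ends of genes are described here, as mapped by DNase-seq in mouse lung. In each library's smaller peak list, an autosomal peak was taken when its centre lay within 500 bp of the 3′ end of a GENCODE protein-coding gene model, outside coding sequence and over 1 kb from every annotated transcript 5′ end. Of 92461 autosomal peaks in replicate 1, 833 met this rule, and of 75564 in replicate 2, 672 did. The rule picked among called peaks by position and used no score, footprint or recurrence. These values may still vary with place, and sequence content is in part set by it. The members lay on the 19 autosomes, most often on chromosome 11, with 94 and 74 of them.

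The material was lung of male B6CASTF1/J mice, first-generation hybrids of the C57BL/6J and CAST/EiJ strains, 14 days old. There is 1 group of 2 libraries, named biological replicates 1 and 2. Replicate 2 is labelled as a pool of 3 males and replicate 1 as male with no pool named, and both point to 1 donor record, so shared animals cannot be told from the labels. No treatment or mutation is named, and with 1 group there is no contrast between conditions, so 3′ end peaks were set beside other peaks of the same library.

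DNase I cuts DNA where nucleosomes do not shield it, and a peak is a stretch with dense cuts. A gene's 3′ end is where the transcript is cut and polyadenylated, commonly a short distance after the hexamer AATAAA. Sequence around cleavage sites is rich in A and T, and A-rich and T-rich stretches are known to disfavour nucleosomes. CTCF, a zinc finger protein that anchors chromatin loops, binds many distal open sites, among them sites beyond gene ends, and protects its motif from DNase I. Whole lung mixes epithelium, vessels, connective tissue, muscle and immune cells, so a lower score from fewer open cells cannot be told apart from less opening per cell.

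The sequences below are those of the reference genome, GRCm38 (the coordinates of mm10), as given by RefSeq. CAST alleles of the hybrid may differ from them. The first set shows the CTCF consensus at 6 of the 10 highest members that held it in both libraries, because these sites recur through the results. Capitals mark the 12 consensus letters, and 6 bases stand on each side.
Acvrl1, chr15:101145558-101145581, minus strand: cattggCCAGCAGAGGGCgacgtg
Bcan, chr3:87987138-87987161, minus strand: ctgtgaCCAGTAGAGGGCgctgca
Dand5, chr8:84815725-84815748, minus strand: ttttagCCACTAGGTGGCaccgcg
Ripor1, chr8:105622560-105622583, plus strand: ctgtcgCCACCAGGGGGCagcaga
Pitx3, chr19:46135441-46135464, plus strand: cagagaCCACCAGGTGGCgtcgca
Ror2, chr13:53109746-53109769, plus strand: cctccgCCAGCAGGGGGCtcacgg

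The next set shows whole peaks of replicate 1 at the 2 highest-ranked members over both libraries and at Acvrl1, read along the strand of the gene. They lie just beyond the gene and not in an exon. The capitals in Acvrl1 mark its CTCF consensus, which there runs against the gene, and Ctdsp1 and Fam120a hold none.
Ctdsp1, chr1:74397361-74397580, plus strand: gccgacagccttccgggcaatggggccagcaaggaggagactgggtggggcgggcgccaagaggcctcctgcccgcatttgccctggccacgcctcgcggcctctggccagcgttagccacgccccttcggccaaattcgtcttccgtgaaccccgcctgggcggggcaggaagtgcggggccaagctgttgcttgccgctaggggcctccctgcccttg
Fam120a, chr13:48878701-48878880, minus strand: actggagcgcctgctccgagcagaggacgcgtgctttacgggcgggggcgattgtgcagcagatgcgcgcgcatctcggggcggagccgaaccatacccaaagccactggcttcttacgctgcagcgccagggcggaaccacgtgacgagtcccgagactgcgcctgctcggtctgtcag
Acvrl1, chr15:101145501-101145700, plus strand: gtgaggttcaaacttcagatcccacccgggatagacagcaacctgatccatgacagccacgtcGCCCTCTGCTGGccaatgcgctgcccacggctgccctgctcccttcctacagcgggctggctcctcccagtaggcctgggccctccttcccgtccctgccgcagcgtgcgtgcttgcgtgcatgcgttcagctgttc

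The last set shows the final 30 bases of gene models, to set the ends themselves beside the peaks around them. Capitals mark the hexamer AATAAA, which was absent from the last 50 bases of Dand5 and 1700001O22Rik.
Ctdsp1, chr1:74397256-74397285, plus strand: tctaaacaAATAAAaaatacacaaaaagca
Fam120a, chr13:48879219-48879248, minus strand: gcttAATAAAaatctttattcttttagtat
Acvrl1, chr15:101145307-101145336, plus strand: gtcttcAATAAAccatgtttgaccccctga
Rtn2, chr7:19296131-19296160, plus strand: actgtAATAAAgagtcctgtggaaaattca
Dand5, chr8:84815405-84815434, minus strand: ccgtgggaaccataaaggttggccaagtcc
1700001O22Rik, chr2:30794769-30794798, minus strand: gtccctttctgagctttcaggctgtgaccc

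Peaks were sparse at the end itself. Centres within 500 bp of a 3′ end had a density of 49.8 per Mb in replicate 1 (95% Poisson interval 46.5 to 53.3) and 40.2 per Mb in replicate 2 (37.2 to 43.3), counted over the 16.7 Mb where the rule could be met. Sequence 1.5 to 5 kb from the ends had 47.0 and 38.0 per Mb, so the ratio was 1.06 in both libraries (mean 1.06 ± 0.00232, SD, n = 2). In a narrower window of 250 bp the mean ratio was 0.969, below 1. All sequence open to the rule had 27.0 and 21.8 per Mb, so 3′ ends and their flanks were both denser than the genome at large. Within the window, however, the last 100 bp before the gene's final base held only 34 and 33 centres. Their density was 19.8 per Mb in replicate 1 (13.7 to 27.7) and 19.2 per Mb in replicate 2 (13.2 to 27.0), against 53.2 (49.6 to 57.1) and 42.6 (39.3 to 46.0) per Mb in the rest of the window. The ratio was 0.372 in replicate 1 and 0.451 in replicate 2, and in neither library did the intervals meet. This 100 bp division was chosen after the profile was seen. The highest bin lay 201 to 300 bp beyond the end, with 70.4 and 54.5 per Mb. Intervals cover counting error only, and peaks of 1 library are not replicates.

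**Figure D1:**
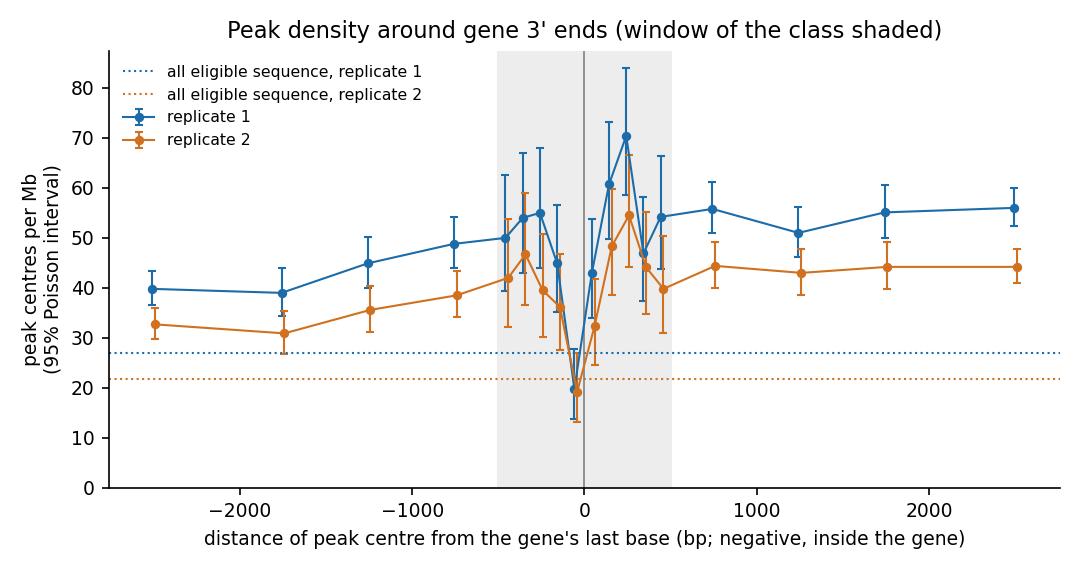
Density of peak centres (per Mb of eligible sequence) against distance from the gene's last base in bp, with 95% Poisson intervals as bars, 1 line per library. The last 100 bp of the gene hold 19.8 and 19.2 centres per Mb, below both neighbouring bins, and the dotted lines give all eligible sequence (27.0 and 21.8).

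The same place was low in a second deposited measure, listed base by base. The authors' deposited lists of bases with a cleavage false discovery rate (FDR) of 0.05 or below covered 1.36% of eligible bases in the last 100 bp and 2.08% in the rest of the window in replicate 1. In replicate 2 they covered 1.07% in the last 100 bp and 1.63% in the rest. Both ratios were 0.653. At an FDR of 0.001 the ratios were 0.637 and 0.665. The dip in listed bases was thus shallower than the dip in peak centres, and the last 100 bp stayed above the 1.11% and 0.898% of all eligible sequence.

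**Figure D2:**
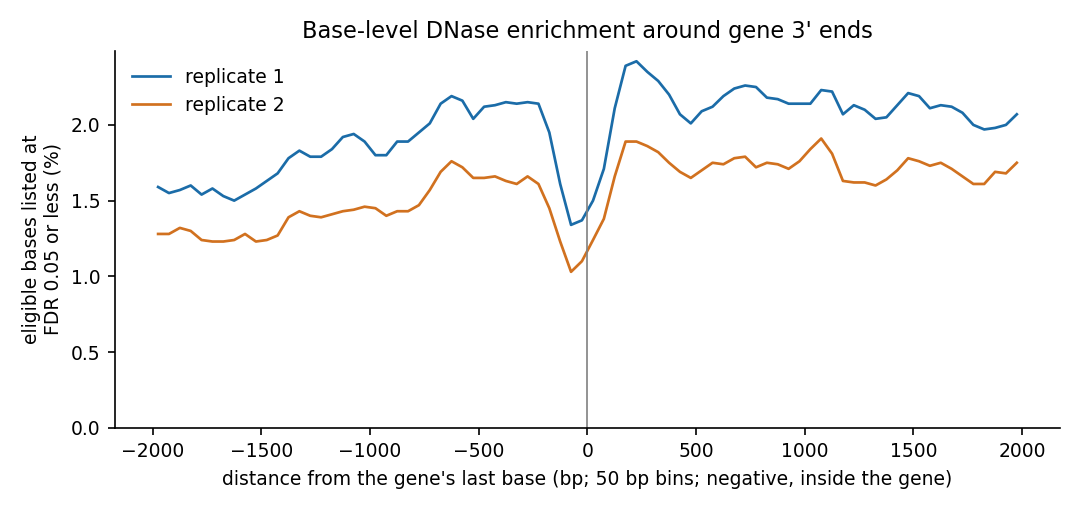
Share of eligible bases (%) listed by the authors at an FDR of 0.05 or below, in 50 bp bins by distance from the gene's last base, 1 line per library. Both lines dip at the end of the gene, where the last 100 bp average 1.36% and 1.07%.

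Base composition moved with the dip. GC content over all 3′ ends was 37.5% in the last 100 bp, against 44.1% in the 100 bp before and 42.9% in the 100 bp after. Genes were divided by the GC content of their last 100 bp into 3 groups of like size. The 7287 GC-poorest genes (9 to 32% GC) had 0 centres there in both libraries (upper limit 5.56 per Mb), while the rest of their windows had 33.5 and 26.6 per Mb. The 7010 middle genes (33 to 42% GC) had 4 and 5 centres, or 6.80 (1.85 to 17.4) and 8.50 (2.76 to 19.8) per Mb, against 49.6 and 39.3 per Mb in the rest. The 6510 GC-richest genes (43 to 81% GC) had 30 and 28 centres, or 64.3 (43.4 to 91.8) and 60.0 (39.9 to 86.8) per Mb, against 85.3 and 69.0 per Mb in the rest. In this last group the interval of each last 100 bp value included the value of the rest, with ratios of 0.754 and 0.870. The density of the rest of the window also rose with GC content.

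Genes with AATAAA in their last 50 bases had 15.3 (8.73 to 24.8) and 18.1 (10.9 to 28.3) centres per Mb in the last 100 bp, against 52.6 and 42.4 in the rest of the window. Genes without it had 26.8 (15.9 to 42.4) and 20.9 (11.4 to 35.0), against 54.2 and 42.9. The dip was therefore present with and without the hexamer, and the intervals of the 2 kinds of gene overlapped. The printed ends of Ctdsp1 and Fam120a, rich in A and T, belong to this stretch. How far mapping, cleavage preference or peak calling vary with base composition was not tested.

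**Figure D3:**
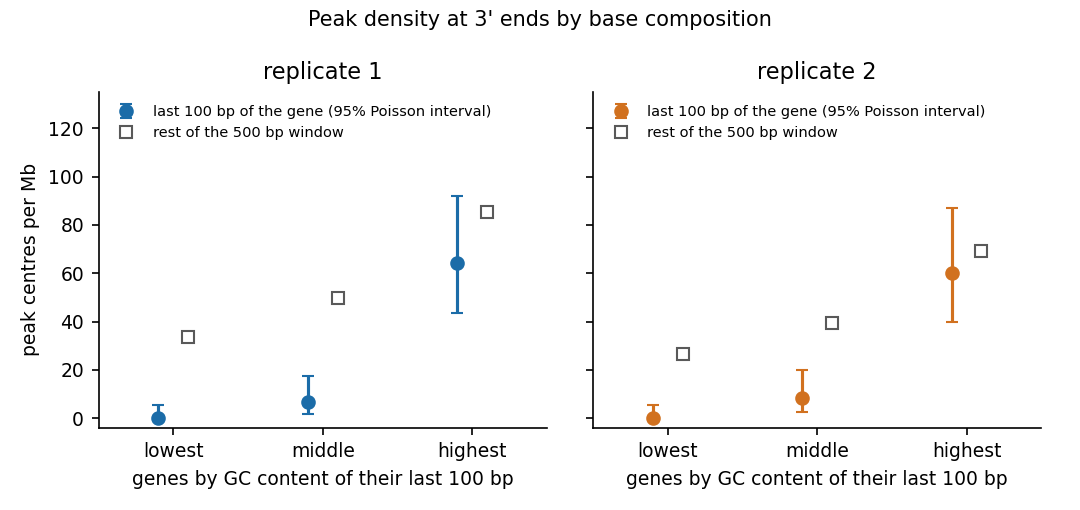
Peak centres per Mb in the last 100 bp of the gene (filled, with 95% Poisson intervals) and in the rest of the 500 bp window (open squares), for genes grouped by GC content of their last 100 bp, 1 panel per library. The GC-poorest group has 0 centres in both libraries, and the GC-richest has 64.3 and 60.0 per Mb.

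More members lay beyond the gene than inside it. On the gene side were 348 members in replicate 1, or 41.8% (exact 95% interval 38.4 to 45.2), and 286 in replicate 2, or 42.6% (38.8 to 46.4), a mean of 42.2 ± 0.554% (SD, n = 2). Per Mb the gene side had 44.1 and 36.3 centres, against 55.0 and 43.8 downstream, ratios of 0.802 and 0.828. The gene side includes the sparse last 100 bp described above. Its other 100 bp bins had 44.9 to 55.0 per Mb in replicate 1 and 36.2 to 46.7 in replicate 2. Downstream bins had 42.9 to 70.4 and 32.3 to 54.5 per Mb. A leaning to the downstream side was also seen at 1.5 to 5 kb, where the ratios were 0.754 and 0.750. Of the members, 339 (40.7%) and 277 (41.2%) lay in a 3′ UTR, 394 (47.3%) and 310 (46.1%) between genes, 82 and 68 in introns and 18 and 17 in noncoding exons. Members just inside the limit, at 498 to 500 bp, had scores from 0.410 to 5.18 in replicate 1 and 0.407 to 6.05 in replicate 2. Those just outside, at 501 to 502 bp, ranged from 0.516 to 1.38 and from 0.957 to 5.13.

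The class was set against a second annotation. Of the members, 29 (3.48%, exact 95% interval 2.34 to 4.96) in replicate 1 and 25 (3.72%, 2.42 to 5.44) in replicate 2 lay within 1 kb of a RefSeq transcript 5′ end that GENCODE M21 does not place there, against 4.86% and 4.83% of all other distal peaks. CpG content was low for a promoter: the ratio of observed to expected CpG within 75 bp of the centre had a median of 0.257 and 0.264 (mean 0.261 ± 0.00445, SD, n = 2), against 0.696 and 0.714 in peaks within 1 kb of a transcript 5′ end and 0.239 and 0.240 in other distal peaks. Median GC content was 53.6% and 54.3%, against 51.7% in other distal peaks of both libraries. Most bases were repeat-masked in 30 (3.60%) and 23 (3.42%) members. The tissue label was looked at through 144 marker genes of 9 lung cell lists, of which 116 and 108 had an open promoter, beside 68.0% and 65.5% of all autosomal protein-coding genes. Myeloid genes were open at 6 and 4 of 17, and secretory genes at 6 and 7 of 12.

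Members stood above the middle of their library's scores. The peak score is the authors' signal value per peak, in a scale that the files do not state. It was ranked within a library, and set across libraries only for the same regions. Its median was 1.52 in replicate 1 and 1.57 in replicate 2, at percentiles 58.3 and 56.1 of all autosomal peaks (mean 57.2 ± 1.55, SD, n = 2). Flanking peaks 1.5 to 5 kb away had median percentiles of 53.9 and 53.0, and all other distal peaks 42.8 and 41.7. Width did not set them apart, with a median of 180 bp, against 172 and 180 bp in other distal peaks. A footprint, a short protected stretch called by the authors, lay in 93.8% and 94.6% of members, against 92.6% and 89.4% of other distal peaks. The difference was 1.14 points (-0.725 to 2.60) in replicate 1, an interval that includes 0, and 5.28 (3.30 to 6.77) in replicate 2. Flanking peaks held a footprint in 93.8% and 92.4%. Members differed from them by -0.0914 points (-2.06 to 1.54) in replicate 1, an interval that includes 0, and by 2.24 (0.111 to 3.97) in replicate 2.

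Most members recurred. In replicate 1, 626 members (75.2%, exact 95% interval 72.1 to 78.1) overlapped a peak of replicate 2 by at least 1 bp, and in replicate 2, 614 (91.4%, 89.0 to 93.4) overlapped one of replicate 1. Other distal peaks did so in 71.2% and 87.9%, so members were 3.96 points (0.889 to 6.79, Newcombe 95% interval) and 3.46 points (1.07 to 5.37) higher. Flanking peaks did so in 73.7% and 90.9%, a difference of 1.47 (-1.83 to 4.57) and 0.430 (-2.10 to 2.56) points, whose intervals include 0. Recurrence went with score. Within quartiles of score the excess was absent in replicate 1, and in replicate 2 it was seen in the middle quartiles alone. In the lowest quartile of replicate 1, 32.0% of members (24.7 to 40.0) had a partner, against 41.6% of other distal peaks, and in the next 60.1% (52.7 to 67.2), against 67.8%. Flanking peaks had 35.0% and 59.7% in these quartiles, so the low shares were not particular to members. In the upper quartiles of replicate 1 the shares were 90.5% and 98.7%, against 91.6% and 99.6%. In replicate 2, from the lowest quartile to the highest, they were 65.2%, 91.9%, 98.7% and 99.4% in members, against 71.8%, 89.6%, 98.3% and 99.9% in other distal peaks. The 207 and 58 members with no partner had median percentiles of 25.0 and 18.6, against 66.7 and 60.2 for those with one. Across the 598 pairs in which both peaks were members, log2 scores correlated at 0.910 by Pearson's and 0.899 by Spearman's measure, a description across regions that share their libraries.

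Most of the highest shared members sat just beyond genes of varied roles. At Ctdsp1, which encodes a phosphatase of the tail of RNA polymerase II, a peak 185 bp past the end (chr1:74397361-74397580) scored 17.6 in replicate 1 and 20.9 in replicate 2. It ranked second and first among members, had 70.9% GC and 14 CpG, and its nearest RefSeq 5′ end was 3110 bp away. At Fam120a, which encodes an RNA-binding protein, the peak 429 bp past the end scored 16.5 and 18.1. It had 66.9% GC and 19 CpG, so both of these peaks were GC-rich and CpG-rich beside the median member.

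At Acvrl1, the endothelial receptor ALK1 for bone morphogenetic proteins, the member scored 16.2 and 14.2. Bcan, which encodes the brain matrix proteoglycan brevican, had the highest member of replicate 1, with 18.02, and 11.1 in replicate 2. Both hold the CTCF consensus printed above, 228 and 376 bp past their gene ends. Sec14l2, a lipid-binding protein gene, scored 12.9 and 15.9, with a transcript 5′ end 1265 bp away in replicate 1, near the limit of the rule. Ripor1 scored 12.9 and 10.8 in an intron of a neighbouring model.

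Inside genes, the 3′ UTR of Rtn2, a reticulon that shapes the endoplasmic reticulum, had a peak 160 bp before the end that scored 16.7 and 11.9. The 3′ UTR of Dand5, an antagonist of Nodal in left-right patterning, had one 335 bp before the end that scored 14.1 and 10.2. These 2 show that high members were not limited to the downstream side. Gm10722 scored 15.4 and 9.71, but at 33.8% GC, and the 50 bases at its centre in replicate 2 occur 2 times in the assembled genome, so its values are uncertain.

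**Figure D4:**
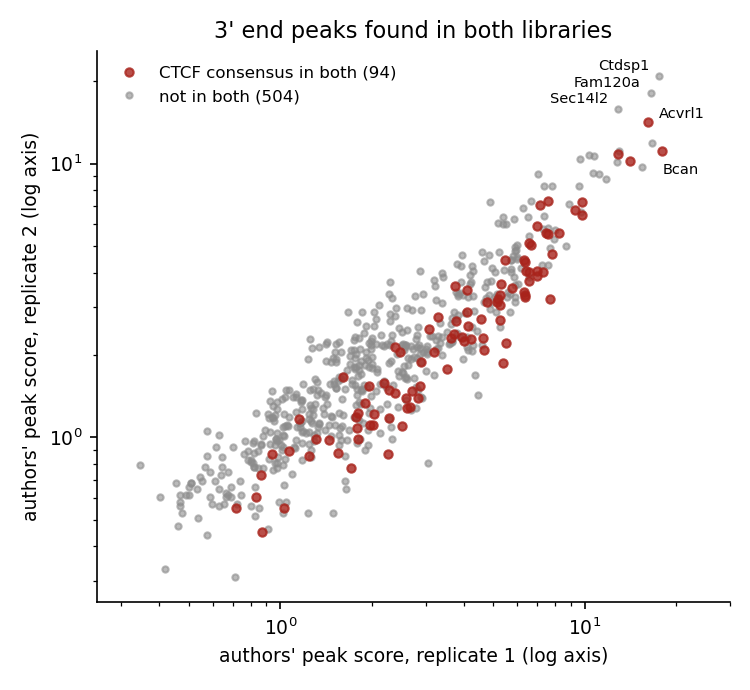
Authors' peak score in replicate 2 against that in replicate 1, both on log axes, for the 598 pairs of 3′ end peaks, 1 point per pair. The 94 pairs with the CTCF consensus in both libraries lie along the lower edge of the cloud.

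The CTCF consensus set members apart from distal peaks at large but not from their flanks. It was searched on both strands within 75 bp of the peak centre and occurred in 109 members of replicate 1 (13.1%, exact 95% interval 10.9 to 15.6) and 99 of replicate 2 (14.7%, 12.1 to 17.6), a mean of 13.9 ± 1.16% (SD, n = 2). Other distal peaks held it in 8.51% and 9.01%, so members were 4.57 points (2.44 to 7.04) and 5.73 points (3.23 to 8.62) higher. Flanking peaks held it in 13.0% and 14.0%, and the differences of 0.114 (-2.24 to 2.75) and 0.686 (-2.05 to 3.77) points had intervals that include 0. Peaks within 1 kb of a transcript 5′ end held it in 2.30% and 2.41%. The share rose with score: in members it was 3.27% and 7.83% in the lowest quartile of their library's scores and 26.3% and 24.1% in the highest. In that quartile other distal peaks held it in 24.1% and 18%, values that the intervals of the members (20.7 to 32.5 and 17.7 to 31.4) included. The same held in the lower quartiles of both libraries, except the second of replicate 2, where members held it in 12.2% (7.72 to 18.1), against 6.56%. The share of members was nonetheless above that of other distal peaks in every quartile of both libraries. Against flanking peaks it was lower in every quartile of replicate 1, and in replicate 2 lower in the third alone.

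**Figure D5:**
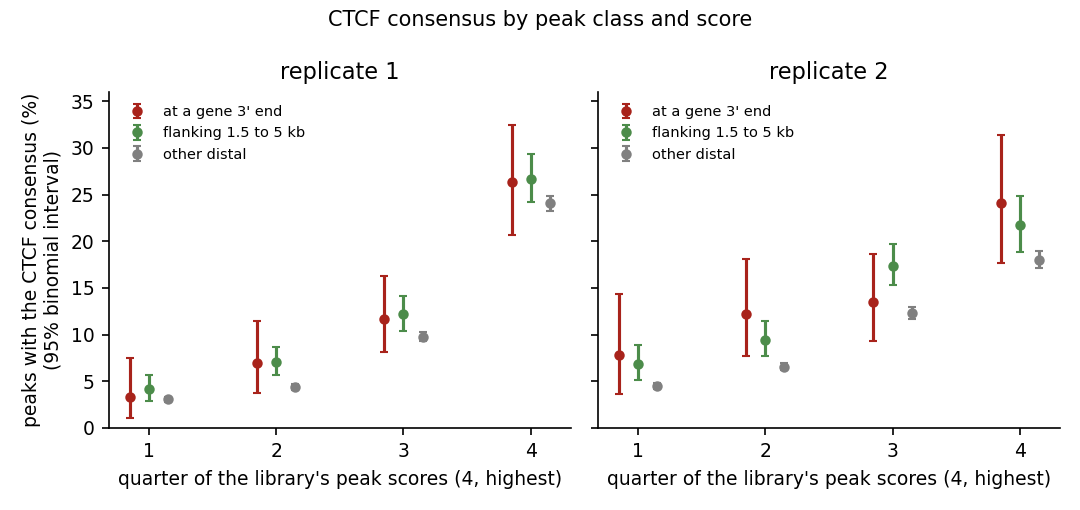
Share of peaks (%) with the CTCF consensus by quartile of the library's peak scores, with exact 95% binomial intervals, for 3′ end peaks, flanking peaks and other distal peaks, 1 panel per library. In the highest quartile 3′ end peaks reach 26.3% and 24.1%, against 24.1% and 18% in other distal peaks.

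The consensus was mostly protected from cleavage. Its centre fell in a footprint in 105 of 109 members (96.3%, 90.9 to 99.0) in replicate 1 and 91 of 99 (91.9%, 84.7 to 96.4) in replicate 2, while footprints covered 37.3% and 28.1% of the bases of these peaks. Its strand against the gene was mixed: 63 of 109 (57.8%, 48.0 to 67.2) and 59 of 99 (59.6%, 49.3 to 69.3) ran with the gene, and both intervals include 50%. All 6 sites printed above lay in a footprint in both libraries: those at Bcan, Dand5 and Ripor1 run with their gene, and those at Acvrl1, Pitx3 and Ror2 against it. Pitx3, a homeobox gene of lens and midbrain, and Elovl3, a fatty acid elongase gene, share their member, whose scores were 9.77 and 6.50. Ror2, a receptor for Wnt5a, had 7.59 and 7.34 in its 3′ UTR. Aak1, a kinase of clathrin-mediated uptake, had 8.24 and 5.58, and Ggt1, a glutathione-cleaving enzyme gene, had 9.28 and 6.76.

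Members with the consensus differed from the others in how their 2 scores related. The lists differ in length, 92461 peaks in replicate 1 and 75564 in replicate 2, so a shared peak may rank higher in the longer list, and only the contrast between pairs with and without the consensus is read here. In all 94 pairs that held it in both libraries the percentile was higher in replicate 1, with medians of 82.7 in replicate 1 and 70.1 in replicate 2 and a median difference of 10.7. In the other 504 pairs it was higher in replicate 1 in 367 (72.8%), with a median difference of 4.93. On the log2 scale the score of replicate 1 over that of replicate 2 had a median of 0.66 with the consensus (quartiles 0.44 and 0.87) and 0.16 without (-0.15 and 0.49). The pairs were not matched on score, and those without the consensus had a lower median percentile, 64.8 in replicate 1 against 82.7. Whether a difference in scale that varies with score enters here was not tested. The pattern was not limited to 3′ ends: among other distal pairs the medians were 0.66 with the consensus and 0.08 without, and 4115 of 4252 pairs with it ranked higher in replicate 1. This comparison was chosen after the scores were plotted.

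Of the 11 other motifs, searched on both strands and none contained in another, few set members apart. GGGCGGGG, bound by KLF and SP factors, occurred in 4.80% and 4.61% of members, against 2.64% and 2.58% of other distal peaks, a difference of 2.16 (0.902 to 3.84) and 2.03 (0.681 to 3.90) points. Against flanking peaks the difference was 1.41 (0.0350 to 3.16) points in replicate 1 and 1.17 (-0.320 to 3.11) in replicate 2, an interval that includes 0. TTGGCA, bound by NFI factors, occurred in 13.7% and 13.8%, against 16.6% and 16.7%, a difference of -2.88 (-5.07 to -0.362) and -2.89 (-5.32 to -0.0579). Against flanking peaks its differences had the other sign, 0.804 (-1.59 to 3.48) and 0.895 (-1.76 to 3.90), with intervals that include 0. TGANTCA, bound by AP-1, occurred in 5.52% and 4.02%, against 6.79% and 6.85%. The difference was -1.27 (-2.64 to 0.508) points in replicate 1, an interval that includes 0, and -2.83 (-4.10 to -1.05) in replicate 2. Against flanking peaks it was -0.295 (-1.83 to 1.59) and -1.99 (-3.47 to -0.0773). AATAAA occurred in 8.76% and 8.93% of members, against 6.66% and 6.58% of flanking peaks, 2.10 (0.202 to 4.32) and 2.35 (0.237 to 4.86) points, but against other distal peaks the differences of 0.880 (-0.870 to 3.01) and 1.17 (-0.774 to 3.58) points had intervals that include 0. The intervals were not adjusted over the motifs.

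Seen by gene, 845 of 20807 autosomal protein-coding genes (4.06%) had a member at their 3′ end in replicate 1 and 676 (3.25%) in replicate 2, 606 of them in both. These genes more often had an open promoter, meaning a peak within 1 kb of any of their transcript 5′ ends. In replicate 1, 671 of 845 (79.4%) did, against 67.6% of other genes and 68.0% of all. In replicate 2, 524 of 676 (77.5%) did, against 65.1% of other genes and 65.5% of all. The difference from other genes was 11.8 (8.92 to 14.5) and 12.4 (9.02 to 15.4) points. Other genes include those whose 3′ end lies so near a transcript 5′ end that the rule could hardly be met. Their part in this difference was not tested. In replicate 1, 1 peak lay at the common end of 21 genes, and without these the share was 80.6%. Gene length hardly differed, with medians of 18.1 and 17.6 kb, against 17.6 kb in other genes of both libraries.

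Facing gene ends were commoner at member genes. A gene on the opposite strand ended within 5 kb of 32.9% of member genes in replicate 1 and 30.5% in replicate 2, against 22.1% and 22.3% of other genes. The differences were 10.8 (7.67 to 14.1) and 8.21 (4.81 to 11.8) points. AATAAA stood in the last 50 bases of 59.9% of member genes in both libraries, against 58.7% of other genes, and the intervals of these differences include 0. The rule leaves out peaks near transcript 5′ ends, so gene ends close to one could hardly have a member, yet they count among other genes. A member also counts for every gene that ends within 500 bp, and 51 members in replicate 1 and 40 in replicate 2 lay at 2 or more genes. How much of the difference in facing ends the rule itself sets was not tested. Whether the open promoters and the facing gene ends go with local gene density was not tested.

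Of 144 lung marker genes, 13 had a member in replicate 1 and 11 in replicate 2, beside 4.06% and 3.25% of all genes. The counts by list are small and differences between lists were not tested. Of 14 ciliated genes, 4 had a member in both libraries. Rsph1, of the radial spoke head, scored 4.31 and 4.05. Tppp3, which promotes tubulin assembly, scored 1.58 and 1.63. Mcidas, a regulator of multiciliated cell fate, scored 1.52 and 1.89. Tekt4, a tektin of the axoneme, had 2 members in replicate 1, with 1.94 and 0.785, and 1 in replicate 2, with 1.07. The members of Rsph1 stood highest, at percentiles 84.1 and 83.3.

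Of 14 smooth muscle and pericyte genes, 4 had a member in replicate 1 and 3 in replicate 2. Lmod1, which nucleates actin filaments in smooth muscle, scored 5.90 and 4.95. Actg2, enteric smooth muscle actin, scored 3.54 and 2.43 while its promoter was not open in either library. Myh11, smooth muscle myosin, scored 0.841 and 0.891. Acta2, vascular smooth muscle actin, scored 1.09 in replicate 1 and had none in replicate 2.

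Other lists held 0 to 2 genes with a member. Among 15 genes of surfactant-making AT2 cells, Napsa, a protease that processes surfactant protein B, and Muc1, a membrane mucin, had one in replicate 1 alone, with 1.34 and 1.71. The peak at Napsa lay 76 bp from a RefSeq 5′ end, and that at Muc1 was nearer the end of Trim46. Aqp5, the water channel of flat AT1 cells, scored 1.47 and 1.89. Aplnr, the apelin receptor of endothelium, scored 0.926 and 1.35, and Fgf10, the growth factor of airway branching, 0.827 and 0.517. Elf3, an epithelial ETS factor, had a member in replicate 2 alone, with 0.627, though it overlapped a replicate 1 peak classed as other distal. Of 12 secretory, 17 myeloid and 14 matched housekeeping genes, 0 had a member in either library, though lists this short could not show a share as low as that of all genes.

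Members without a partner were led by modest scores. In replicate 1 the highest were at Nmrk2, a kinase of nicotinamide riboside, with 3.19, at Tbx2, a T-box factor of lung mesenchyme, with 3.17, and at Mdk, the growth factor midkine, with 2.87. Sema4c, a semaphorin gene, followed with 2.38 and Phf7, a PHD finger gene, with 2.02. In replicate 2 they were at nonagouti, which encodes the agouti signalling protein, with 3.30, at Hoxa4, a homeobox gene, with 2.48, and at Bcl6b, a transcriptional repressor gene, with 2.06. Tagln2, an actin-binding protein gene, had 1.38 and Nfkbia, which encodes the inhibitor of NF-kappaB, had 1.28. All 10 stood at or below percentile 79.2 of their library. The end of nonagouti also had a stronger member found in both libraries, with 11.8 in replicate 1 and 8.76 in replicate 2.

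A few ends gathered several peaks. In replicate 1, 55 of 845 genes (6.51%) had 2 or more members, and in replicate 2, 37 of 676 (5.47%). Pigv, which encodes a mannosyltransferase of the GPI anchor, had 3 in both libraries: 263 bp before the end (4.95 in replicate 1), 3 bp before it (3.83) and 387 bp after it (2.52). In replicate 2 the 3 peaks scored 4.16, 3.33 and 1.73, in the same order. The middle peak is 1 of the 34 and 33 in the last 100 bp of a gene. Sema6c, Klf6 and Gadd45g had 3 in replicate 1 alone, with highest scores of 7.69, 2.76 and 4.21.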

How the data were processed

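DNase-seq peak lists of 2 lung libraries were used. Per the listings that accompany the deposited files, the authors mapped reads to mm10. Aligner and peak caller: not given in the sources used here. Each deposited peak carries a signal value, here the score, whose scaling is not stated. The authors' FDR lists give a p-value (false discovery rate) per run of bases, up to 0.05, and their footprint lists a constant 0.01. No read counts were used, so depth is unknown.

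Peak centres were classed with GENCODE M21 on GRCm38, and RefSeq (NCBI annotation release 108.20200622) gave a second set of 5′ ends. Density was counted per Mb of sequence without N, outside coding exons and over 1 kb from transcript 5′ ends. Of 12 consensus sequences, each was searched on both strands within 75 bp of the peak centre. Shares have exact 95% binomial intervals, differences Newcombe and densities Poisson intervals. No p-value was computed. Named genes were the 10 highest shared members, the 5 top members per library, overall and among those without a partner, the 10 highest with CTCF, listed lung genes with a member, and genes with 3 or more. Python 3.11.15, numpy 2.4.6, pandas 2.3.3, scipy 1.17.1, statsmodels 0.14.6 and matplotlib 3.10.9 were used, and the code was tested on simulated data. The members and lists were chosen with earlier results of these data known.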

Additional observations from a re-analysis of the deposited data

How the results depend on the processing

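Values below are means over both libraries. Leaving out 1 library gave 672.0 to 833.0 members, 0.889 to 0.901% of autosomal peaks, a density ratio to the flanks of 1.06 in both cases, 41.8 to 42.6% on the gene side, a CTCF share of 13.1 to 14.7% with an excess over other distal peaks of 4.57 to 5.73 points, a median percentile of 56.1 to 58.3, open promoters at 77.5 to 79.4% of genes and a CpG ratio of 0.257 to 0.264. The ratio of the last 100 bp to the rest of the window was 0.372 to 0.451. Partner shares need both libraries.

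The larger peak lists gave 1131.5 members (0.881% of autosomal peaks), a density ratio of 1.07, a partner excess of 2.53 points, a CTCF share of 10.5%, open promoters at 83.1% and a CpG ratio of 0.253. The higher-scoring 50% of peaks gave 438.5 (1.04%), 1.15, 4.55 points, 18.2%, 71.9% and 0.269 for the same measures, with 40.2% on the gene side, a CTCF excess of 3.52 points and a median percentile of 44.1 within that selection. A window of 250 bp gave 353.5 members (0.420%), a density ratio of 0.969, 38.4% on the gene side, a partner excess of 2.20 points, a CTCF excess of 4.09 points and a CpG ratio of 0.272. A window of 1000 bp gave 1488.5 members (1.77%), a density ratio of 1.08, a partner excess of 3.11 points, open promoters at 80.3% and a CpG ratio of 0.252. Ends of any protein-coding transcript gave 1134.0 members (1.35%), a density ratio of 1.01, a partner excess of 2.85 points, a median percentile of 54.7 and open promoters at 82.3%. They also gave 0.543 for the last 100 bp over the rest, an alternative that, like all those of this ratio, was chosen after seeing the data. A minimum of 2 kb from 5′ ends gave 623.0 members (0.740%), a density ratio of 1.06, 43.6% on the gene side, a partner excess of 3.21 points and a median percentile of 55.4. Reciprocal overlap of 50% gave a partner excess of 5.02 points. The density ratio to the flanks thus fell on either side of 1 and the excesses kept their sign. The partner excess with the window of 250 bp was, however, only 0.109 points in replicate 1, against 4.30 in replicate 2. The causes of these shifts were not tested. Of 94 alternatives, 51 moved their value by less than the SD between the libraries or, for the number of members, by less than 1.5 times. Those that left out 1 library were, apart from the number of members, bound to be among these 51. With 2 libraries each value lies within the SD of their mean, so these alternatives do not show stability.

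With the depth unknown and 2 libraries, weak peaks cannot be told apart from missed ones. No paired analysis was possible because there is 1 group.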
